A study of Mus musculus with 18 samples.

Results

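The 35 genes described here encode enzymes that break down glucose, route it into the pentose phosphate pathway or store it as glycogen, together with a pair of kinases that control the entry of pyruvate into mitochondria. They were chosen by name, as the genes of the deposited table that carry one of 35 symbols, and all 35 were found among the 22708 genes of that table. Their Entrez identifiers matched those of RefSeq for 35 of 35.

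The study asked how the aryl hydrocarbon receptor (AHR), a transcription factor activated by its ligands, shapes eosinophils that live in the intestine. CD11b+ MHC-II- SiglecF+ SSChi cells were sorted from the small intestine of C57BL/6 mice after enrichment on beads for CD11b, and RNA was sequenced in bulk. There were 6 samples from wild-type mice (WT), 6 from mice labelled as Ahr knockouts (Ahr-/-) and 6 from mice labelled as knockouts of Ahrr, the gene of the AHR repressor (Ahrr-/-), each group with 3 females (F1 to F3) and 3 males (M1 to M3). The paper's text does not report on the Ahrr-/- samples. The paper uses a separate line for deletion of Ahr in eosinophils alone, so Ahr-/- is read here as a knockout of the whole animal. The Ahrr-/- line is not described in the paper's text. WT and Ahr-/- mice were neither littermates nor cohoused, so that litter and housing cannot be told apart from genotype. The paper counts its WT and Ahr-/- samples as separate mice. Nothing beyond numbered labels says so of the Ahrr-/- samples, and p-values of comparisons with them measure only the spread between these samples, which may be technical.

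Each value is an expression level on the log2 scale after a variance-stabilizing transformation, and each difference is a difference between such levels. On this scale a count of 0 stands at 5.02, and the transformation shrinks the differences of genes with few reads. Library totals ranged from 3842977 to 8149200 counts in WT (median 6022410), from 6581818 to 10284124 in Ahr-/- (median 9647590) and from 8788867 to 12046933 in Ahrr-/- (median 10371556). Low counts are thus least precise in WT.

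Glycolysis splits glucose into pyruvate: hexokinases phosphorylate glucose, a preparatory phase turns the product into triose phosphates, and a payoff phase yields ATP, NADH and pyruvate, which lactate dehydrogenase can reduce to lactate. The pentose phosphate pathway branches off after the hexokinase step and supplies ribose and NADPH, which granulocytes use for the oxidative burst and to keep glutathione reduced. Granulocytes are known for a strong use of glycolysis and for stores of glycogen. Several glycolytic genes are textbook targets of hypoxia-inducible factor HIF1, which like AHR pairs with ARNT to bind DNA.

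Some libraries stood apart. F3 of WT had the lowest total count, 3842977, yet the largest number of genes with at least one count, 20244, and F3 of Ahr-/- came next with 19694 genes. The other 16 samples lay between 15146 and 17236 genes. Summed markers of enterocytes, goblet cells and Paneth cells, which the sort should remove, reached 8730 CPM (counts scaled to the library total) in F3, 10600 in M1, 5780 in M2 and 13200 in M3 of Ahrr-/-. They were 2540 and 1520 in the other Ahrr-/- samples, F1 and F2. In WT the sum was highest in F1 (4890) and M3 (4240) and lay between 1750 and 2820 in the others, and in Ahr-/- it lay between 1440 and 2120. Calls among the 35 genes were also made without them.

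**Figure D1:**
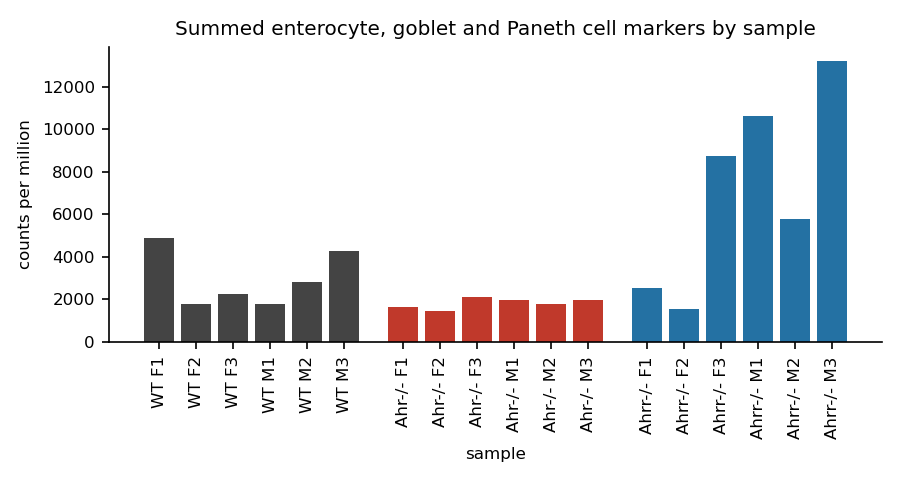
CPM (counts scaled to the library total) summed over markers of enterocytes, goblet cells and Paneth cells (vertical axis) in each of the 18 samples (horizontal axis, grouped by genotype). F3, M1, M2 and M3 of Ahrr-/- stand above every other sample, from 5780 to 13200, and the 6 Ahr-/- samples lie between 1440 and 2120.

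The labelled cell type was checked against its markers. Ccr3 (mean normalized count 12400 in WT), Alox15 (16800), Siglecf (2040) and Il5ra (2130) were abundant, whereas the granule genes Epx (10.9) and Ear6 (0.344) had few reads. The summed eosinophil markers lay between 3390 and 5030 CPM in WT, between 5260 and 5840 in Ahr-/- and between 2190 and 4310 in Ahrr-/-. In Ahrr-/- this sum was lowest in M3 (2190) and F3 (2910).

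The transcripts of both targeted genes came first. Ahr lay between 13.40 and 14.40 in WT (median 13.76), between 14.15 and 14.67 in Ahr-/- (median 14.55) and between 13.03 and 14.42 in Ahrr-/- (median 13.51). It was thus not lower in the samples labelled Ahr-/- (difference 0.61 from WT, adjusted p = 0.0557 from limma, 4 of 6 samples above every WT sample). Ahrr lay between 9.79 and 10.39 in WT (median 10.12), between 5.02 and 5.79 in Ahr-/- (median 5.25) and between 9.95 and 10.93 in Ahrr-/- (median 10.37). Ahrr, itself a target of AHR, stood near its floor in all 6 Ahr-/- samples and was not lower in the samples labelled Ahrr-/- than in WT (difference 0.28, adjusted p = 0.683 from limma). Against Ahr-/-, Ahr was lower in Ahrr-/- (difference -0.82, adjusted p = 0.0296 from limma). Which part of either gene was deleted is not given in the sources used here, so counts over whole genes do not check either knockout, and groups are named by their labels.

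Levels were compared between genes as normalized counts per kb of spliced transcript, as the mean over the 6 WT samples. Ldha, which makes the muscle-type subunit of lactate dehydrogenase, was highest at 3020 ± 881 (SD, n = 6), followed by Pygl, the liver-type glycogen phosphorylase, at 1930 ± 260 (SD, n = 6). Then came Taldo1 (transaldolase, 1760 ± 119), Aldoa (aldolase A, 1590 ± 122) and Gapdh (glyceraldehyde-3-phosphate dehydrogenase, 1330 ± 151). Of neighbours in this order, Pygl and Taldo1 differed by less than the SD of Pygl. At the other end stood Aldoc at 5.94, Eno2 at 1.08 and Ldhb at 0.94, the isozymes of aldolase, enolase and lactate dehydrogenase best known from brain and heart.

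Within families of isozymes the levels per kb were uneven. Among the hexokinases, Hk2 had 173 ± 24.8, Hk1 78.1 ± 12.0 and Hk3 15.9 ± 8.85 normalized counts per kb in WT. The platelet-type phosphofructokinase Pfkp had 202 ± 55.7, the liver type Pfkl 26.5 ± 4.88 and the muscle type Pfkm 7.32 ± 1.82. Of the phosphoglucomutases, Pgm2 (Entrez 66681) had 386 ± 60.2 and Pgm1 (Entrez 72157) 32.6 ± 7.59; their symbols have been swapped over the years, and identifiers are given for that reason. The 35 genes together took between 0.385% and 0.508% of all counts in WT, between 0.394% and 0.479% in Ahr-/- and between 0.385% and 0.49% in Ahrr-/-.

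Of the 5 genes with the highest level per kb, Aldoa lay between 11.13 and 11.40 in WT (median 11.24), between 10.78 and 11.87 in Ahr-/- (median 11.51) and between 10.61 and 12.01 in Ahrr-/- (median 11.33). Taldo1 lay between 11.01 and 11.29 in WT (median 11.11), between 10.91 and 11.72 in Ahr-/- (median 11.55) and between 10.40 and 11.67 in Ahrr-/- (median 11.05). Gapdh lay between 10.79 and 11.20 in WT (median 10.85), between 10.24 and 11.10 in Ahr-/- (median 10.61) and between 10.74 and 11.60 in Ahrr-/- (median 10.97). For all 3 genes the groups overlapped and the WT samples were the tightest, while M3 of Ahrr-/- was the lowest of its group. Ldha and Pygl are described with the comparisons that called them.

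**Figure D2:**
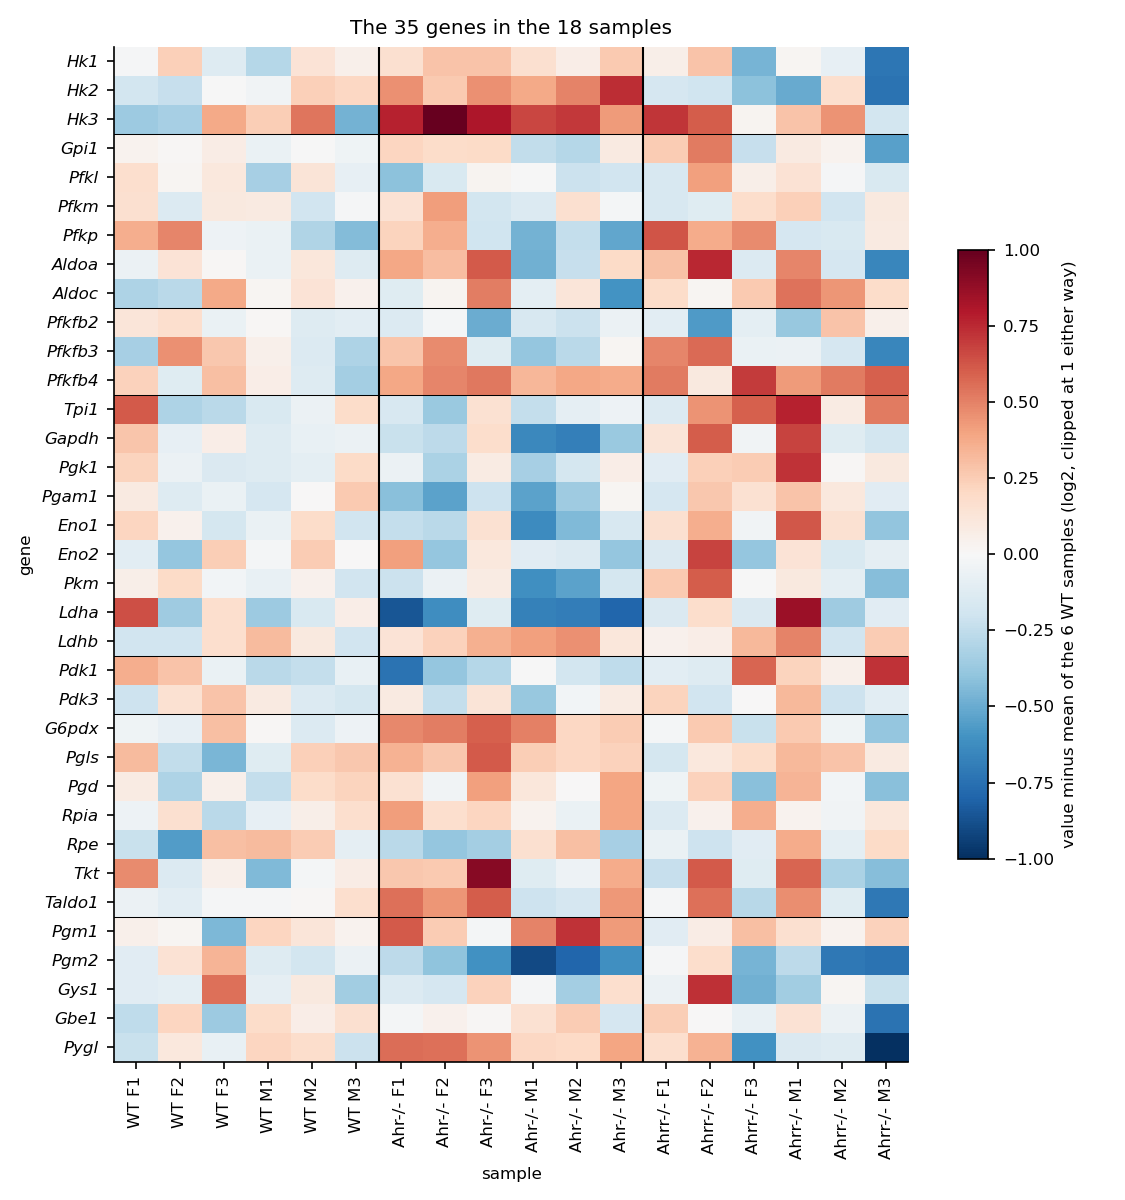
Each of the 35 genes (vertical axis, ordered by role) in each of the 18 samples (horizontal axis), coloured by its value minus the mean of the 6 WT samples (log2, clipped at 1 either way). In the Ahr-/- samples the hexokinases and G6pdx stand above the WT mean and Ldha and Pgm2 below it.

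The comparison of Ahr-/- with WT asks which of these genes differ in samples labelled as lacking the receptor. Hk2, Hk3, Pfkfb4 and G6pdx rose in Ahr-/-, and Ldha and Pgm2 fell. Of the 32 genes with enough reads to be tested, 4 were called higher, where 5.16% of all 11346 tested genes were, and 2 were called lower, against 3.68% of all tested genes (limma with sex as covariate, Benjamini-Hochberg adjusted p under 0.05). The 6 samples of one group lay entirely on one side of the other for 3 of the 32, against 4.51% of all tested genes. Of the 3 untested genes, Aldoc, Eno2 and Ldhb, the level was below the minimum of 1 above the floor.

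The differences of the 32 genes were centred near 0, with a median of 0.01 against -0.00 over all tested genes, and 16 of 32 were above 0. Their median size was 0.23 against 0.16 over all tested genes, and 13 of 32 had an unadjusted p under 0.05, where 23.3% of all tested genes did. As the RNA is from bulk samples, fewer cells of a type and less RNA per cell cannot be told apart. The comparisons below share samples with this one.

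The hexokinases phosphorylate glucose and so hold it in the cell. Hk2 (Entrez 15277, GRCm38 chromosome 6 from 82725025 to 82774454) lay between 9.75 and 10.22 in WT (median 9.96), between 10.24 and 10.72 in Ahr-/- (median 10.44) and between 9.24 and 10.15 in Ahrr-/- (median 9.68). All 6 Ahr-/- samples were above all samples of both other groups. The difference between Ahr-/- and WT was 0.47 (SE 0.10, adjusted p = 0.00615 from limma), a ratio of 1.4 between mean normalized counts. The call remained when each of the 12 samples was left out in turn, with adjusted p between 0.00631 and 0.0225, and was lost when all 3 groups were fitted together (0.051).

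Hk3 (Entrez 212032, chromosome 13 from 55005985 to 55021475), a hexokinase known from granulocytes, lay between 6.19 and 7.20 in WT (median 6.62), between 7.09 and 7.82 in Ahr-/- (median 7.40) and between 6.48 and 7.38 in Ahrr-/- (median 7.03). In WT the values split, with F1, F2 and M3 between 6.19 and 6.33 and the others between 6.91 and 7.20, and 5 of 6 Ahr-/- samples were above every WT sample. It rose by 0.75 in Ahr-/- (SE 0.19, adjusted p = 0.019 from limma), with a ratio of 2.23 between mean normalized counts and a difference of 1.31 by limma voom. Without F2 of Ahr-/- the adjusted p was 0.0525, and without F1 and M3 of WT, the WT samples highest in gut epithelial markers, the difference was 0.55 with an adjusted p of 0.0716. Hk1, the hexokinase found in most tissues, differed by 0.20 (adjusted p = 0.253 from limma). Thus 3 of 3 hexokinases were above 0, with a median difference of 0.47, and they were so under each of the other 4 scalings tried.

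The promoters of 3 genes are shown because Hk2 and Ldha were called in Ahr-/- against both other groups and Pgm2 had the lowest adjusted p of the 35 genes in the comparison with WT. Each run is the 250 bases before one start that RefSeq lists for the gene in GRCm38.p6, written 5′ to 3′ on the strand of the gene. A gene can have several starts, and the window of Ldha lies inside the RefSeq span of the gene given below while that of Pgm2 runs into it. The core letters searched on both strands were GCGTG and the longer TNGCGTG, which contains it, for AHR with ARNT, and ACGTG for HIF1 with ARNT. Capitals mark ACGTG or its reverse complement CACGT, and CACGTG, which reads the same on both strands, was counted on each.
Hk2, chr6:82774455-82774704, minus strand: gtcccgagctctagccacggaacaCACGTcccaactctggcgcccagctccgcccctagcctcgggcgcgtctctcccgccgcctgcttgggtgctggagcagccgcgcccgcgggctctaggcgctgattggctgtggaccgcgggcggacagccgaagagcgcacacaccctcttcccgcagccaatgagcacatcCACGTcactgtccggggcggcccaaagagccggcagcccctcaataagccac
Ldha, chr7:46845554-46845803, plus strand: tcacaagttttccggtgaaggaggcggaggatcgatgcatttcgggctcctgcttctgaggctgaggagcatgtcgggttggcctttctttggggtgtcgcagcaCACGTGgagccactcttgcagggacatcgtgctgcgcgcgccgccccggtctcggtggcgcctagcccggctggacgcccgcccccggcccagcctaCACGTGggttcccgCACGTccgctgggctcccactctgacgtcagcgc
Pgm2, chr5:64092689-64092938, plus strand: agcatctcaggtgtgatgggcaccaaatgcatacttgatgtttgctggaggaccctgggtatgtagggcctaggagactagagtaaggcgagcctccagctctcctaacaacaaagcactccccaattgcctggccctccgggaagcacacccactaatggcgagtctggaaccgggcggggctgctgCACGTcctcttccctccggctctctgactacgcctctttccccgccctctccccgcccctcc

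In these windows ACGTG matched 2 times for Hk2, 5 times for Ldha and 1 time for Pgm2, and GCGTG had no match. A further listed start of Ldha had 1 match to GCGTG in its window. Over all 32851 promoter windows of this length, 16.6% held ACGTG, 28.2% held GCGTG and 4.1% held TNGCGTG. Of the 51 windows of the 35 genes, 18 windows from 14 genes held ACGTG, 27 from 22 genes held GCGTG and 5 from 5 genes held TNGCGTG. G6pdx, which was also called in Ahr-/- against both other groups and is not shown, had 1 match to GCGTG and 0 to ACGTG in its window. Such matches describe letters and are not evidence of binding.

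Tpi1 also belongs to the preparatory phase but is grouped with the payoff genes below. Of the other preparatory genes, 0 of the 5 tested were called in Ahr-/- against WT (limma), where 8.84% of all tested genes were called either way. Gpi1, the isomerase that makes fructose 6-phosphate, differed by 0.03, a sign that turned under quantile normalization. Differences were -0.16 for Pfkl, 0.06 for Pfkm and -0.14 for Pfkp, which encode the committing enzyme phosphofructokinase, and 0.13 for Aldoa. Adjusted p for these 5 genes lay between 0.456 for Pfkl and 0.907 for Gpi1. At an unadjusted p under 0.05 there were 0, where 23.3% of all tested genes were.

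The enzymes of the Pfkfb family make and break fructose 2,6-bisphosphate, an activator of phosphofructokinase. Pfkfb4 (Entrez 270198, chromosome 9 from 108988272 to 109032236) lay between 6.58 and 7.22 in WT (median 6.89), between 7.25 and 7.45 in Ahr-/- (median 7.31) and between 7.02 and 7.62 in Ahrr-/- (median 7.44). The Ahr-/- samples sat closely together, just above the highest WT sample, F3, and the Ahrr-/- samples reached from below to above that range. Pfkfb4 rose by 0.42 in Ahr-/- (SE 0.11, adjusted p = 0.0328 from limma, 6 of 6 samples above every WT sample). This call was kept in 3 of 12 fits that left out a sample; without F2, M2 or M3 of WT, or any one sample of Ahr-/-, the adjusted p lay between 0.053 and 0.0784. Pfkfb4 was not called with a replicate block either (adjusted p = 0.0598 from limma), nor with no minimum mean (0.0705). Pfkfb2 differed by -0.18 (adjusted p = 0.332 from limma) and Pfkfb3, the inducible form, by -0.00 (adjusted p = 0.996).

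The group named payoff genes here holds the genes of the payoff phase and the lactate dehydrogenases, which act after it. It also holds Tpi1, whose enzyme acts at the end of the preparatory phase. Ldha fell in Ahr-/-, and the other 6 tested genes of this group also had differences below 0 without being called. Ldha (Entrez 16828, chromosome 7 from 46842274 to 46855627) lay between 11.99 and 13.00 in WT (median 12.31), between 11.50 and 12.23 in Ahr-/- (median 11.67) and between 12.00 and 13.21 in Ahrr-/- (median 12.23). Among the Ahr-/- samples 5 of 6 were below every WT sample, and the exception was F3. Ldha decreased by 0.63 (SE 0.16, adjusted p = 0.0236 from limma), a ratio of 0.632 between mean normalized counts.

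The call of Ldha was kept in 7 of 12 fits that left out a sample, and was lost when all 3 groups were fitted together (adjusted p = 0.0831 from limma) and with no minimum mean (0.0521). The adjusted p was 0.0531 without F3 of WT, 0.0539 without M3 of WT, 0.0715 without F1 of Ahr-/-, 0.0567 without F2 of Ahr-/- and 0.0545 without M3 of Ahr-/-. Without F1 and M3 of WT, which were highest in gut epithelial markers, the difference was -0.45 with an adjusted p of 0.0651. Ldha was highest in F1 (13.00) among the WT samples, followed by F3 (12.52) and M3 (12.42). Among the Ahrr-/- samples it was highest in M1 (13.21), then in F2 (12.53), the sample of that group lowest in gut epithelial markers. M3 of Ahrr-/-, the highest in these markers, had 12.24, and M2 had the lowest value, 12.00. Goblet and Paneth cell markers moved with this result: 5 of 9 were called lower in Ahr-/- than in WT, namely Muc2, Tff3, Agr2, Spink4 and Clca1 of goblet cells, while 0 of 13 enterocyte markers were called. Their sum was between 965 and 3060 CPM in WT and between 776 and 1350 in Ahr-/-, the most abundant was Lyz1 (difference 0.02), no marker was at 0 in all samples, and their part in the result was not tested beyond leaving out these libraries.

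Among the other payoff genes, Pgam1 (phosphoglycerate mutase) differed by -0.34 (adjusted p = 0.0775 from limma) and Gapdh by -0.33 (adjusted p = 0.0783), each with 5 of 6 Ahr-/- samples below every WT sample. Gapdh passed without F2 of WT (adjusted p = 0.0401 from limma) or F3 of Ahr-/- (0.0262), and Pgam1 passed without M3 of Ahr-/- (0.0394). Eno1 (enolase) differed by -0.26, Pkm (pyruvate kinase) by -0.25, Tpi1 (triose phosphate isomerase) by -0.13 and Pgk1 (phosphoglycerate kinase) by -0.12, with adjusted p between 0.164 and 0.642. The median of the 7 tested genes was -0.26, and 7 of 7 were below 0 under each of the other 4 scalings. Gapdh, Pkm, Ldha, Pgk1, Tpi1, Aldoa, Pgam1 and Eno1 have processed pseudogenes or near-identical copies, and reads were not stranded, so the values of these genes are uncertain to the extent that counting split reads between copies.

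Pdk1 and Pdk3 encode kinases that switch off pyruvate dehydrogenase. Against WT, Pdk1 differed by -0.31 (adjusted p = 0.227 from limma) and Pdk3 by -0.06 (adjusted p = 0.812) in Ahr-/-.

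In the pentose phosphate pathway G6pdx rose. G6pdx (Entrez 14381, chromosome X from 74409483 to 74428880), which encodes glucose-6-phosphate dehydrogenase at the entry of the pathway, lay between 9.69 and 10.13 in WT (median 9.79), between 10.04 and 10.43 in Ahr-/- (median 10.32) and between 9.44 and 10.09 in Ahrr-/- (median 9.80). In WT, F3 stood above the other 5 samples, and those 5 were below every Ahr-/- sample. The difference was 0.42 (SE 0.10, adjusted p = 0.011 from limma, 4 of 6 Ahr-/- samples above every WT sample). It was called in all 12 fits that left out a sample, with adjusted p between 0.00769 and 0.0311.

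Differences of the other pentose phosphate genes were 0.32 for Pgls (the lactonase), 0.28 for Tkt (transketolase), 0.27 for Taldo1, 0.19 for Rpia (ribose-5-phosphate isomerase), 0.17 for Pgd (6-phosphogluconate dehydrogenase) and -0.15 for Rpe (the epimerase). Their adjusted p lay between 0.203 for Pgls and 0.581 for Rpe. Counting G6pdx, 6 of 7 were above 0, with a median of 0.27, and the same 6 were above 0 under each of the other 4 scalings.

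The glycogen genes and phosphoglucomutases went both ways. Pgm2 (Entrez 66681, chromosome 5 from 64092919 to 64128355), which interconverts sugar phosphates and acts mainly on phosphopentoses, lay between 9.74 and 10.26 in WT (median 9.83), between 9.02 and 9.66 in Ahr-/- (median 9.31) and between 9.18 and 10.10 in Ahrr-/- (median 9.56). All 6 Ahr-/- samples were below all 6 WT samples, while the Ahrr-/- samples overlapped both groups. Pgm2 decreased by 0.60 (SE 0.10, adjusted p = 0.00132 from limma), a ratio of 0.641 between mean normalized counts, and stayed called in all 12 fits that left out a sample (adjusted p between 0.000362 and 0.0049).

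Pgm1, which links glucose 1-phosphate from glycogen to glycolysis, differed by 0.42 (adjusted p = 0.0623 from limma, 5 of 6 Ahr-/- samples above every WT sample). It passed without F1 of WT (adjusted p = 0.0499 from limma) or F3 of Ahr-/- (0.0401). Pygl differed by 0.40 (adjusted p = 0.0534 from limma, 4 of 6 above), and passed without M1 (0.0296) or M2 (0.047) of WT. Pygl also passed under quantile normalization (adjusted p = 0.00835 from limma), a minimum mean of 3 (0.0405), limma voom (0.0469) and no trend (0.0477). Gys1, the muscle-type glycogen synthase, differed by -0.04, and Gbe1, the branching enzyme, by 0.05.

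**Figure D3:**
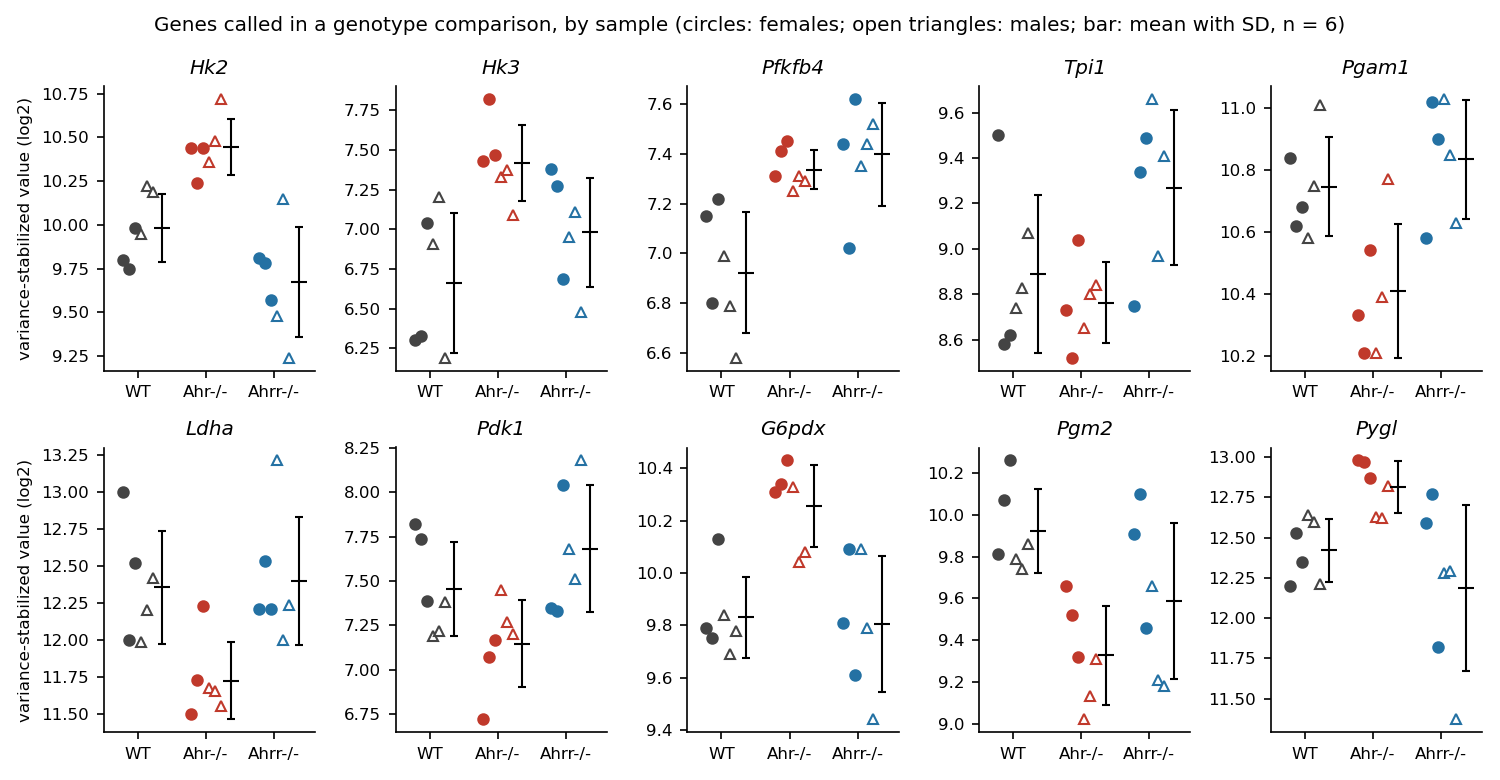
Variance-stabilized values (log2, vertical axis) of the 10 genes called in a genotype comparison, by genotype (horizontal axis), with circles for females, open triangles for males and bars for the mean with SD (n = 6). Hk2 stands higher in the 6 Ahr-/- samples than in all other samples, and Pgm2 stands lower in Ahr-/- than in WT without overlap.

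Leaving out the libraries that stood apart changed some of these calls. Without F3 of WT and F3 of Ahr-/-, which had the most genes detected, 3 genes were called higher and 3 lower. Over all 11271 tested genes 334 were called higher and 252 lower in that fit. Pfkfb4 was then not called (difference 0.45, adjusted p = 0.0514 from limma) and Gapdh was (difference -0.42, adjusted p = 0.0432). Without F1 and M3 of WT, Hk2 (adjusted p = 0.0102 from limma), G6pdx (0.0254) and Pgm2 (0.000819) were called, and the other 3 were not. Over all 11320 tested genes 476 were then called higher and 414 lower. Granulocyte markers also moved with genotype: 2 of 5 tested neutrophil markers were called higher in Ahr-/-, namely Retnlg (difference 1.21) and Cxcr2 (0.65), and their sum was between 7480 and 12900 CPM against 3230 to 5580 in WT. Retnlg was the most abundant of that list. Mean normalized counts of others in Ahr-/- and WT were 199 and 102 for S100a8, 338 and 189 for S100a9, 28.9 and 14.8 for Ltf, and 1.1 and 1.38 for Ly6g. Of 7 tested eosinophil markers, 2 were called higher in Ahr-/-, Prg2 (difference 2.30) and Alox15 (0.58). The part of either list in the differences above was not tested.

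Genes of neighbouring pathways were taken from 9 lists, of which 138 entries were in the table. Over all tested genes 8.84% were called either way in this comparison. The list of HIF1 pathway and other hypoxia genes held the largest number of calls among these lists: 4 of 18 tested genes fell in Ahr-/-, where 3.68% of all tested genes did, with a median of -0.21. Hif1a, the oxygen-regulated subunit of HIF1, decreased by 0.84 (adjusted p = 0.01 from limma), and Vhl, which marks it for degradation, decreased by 0.78 with no overlap (adjusted p = 0.000355). Epas1 (HIF2A) decreased by 0.65 (adjusted p = 0.0483 from limma) and Ddit4 by 0.56 (adjusted p = 0.0355). Among 15 regulators of glucose sensing and metabolism, Myc rose by 0.99 without overlap (adjusted p = 3.63e-05 from limma), and Prkag1, a subunit of AMPK, decreased by 0.77 without overlap (adjusted p = 0.000112).

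Adpgk, the ADP-dependent glucokinase, rose by 0.65 (adjusted p = 0.0234 from limma) and was the 1 called of 11 other glycolytic isozymes, near the 8.84% of all tested genes, as are the counts of 1 that follow. Me2 (mitochondrial malic enzyme) decreased by 0.53 (adjusted p = 0.0393 from limma), the 1 called of 9 NADPH and pentose genes. Galm (galactose mutarotase) decreased by 0.97 without overlap (adjusted p = 0.000392 from limma), the 1 called of 14 genes of fructose, galactose and hexosamine entry. The lists of sugar and lactate transporters, pyruvate dehydrogenase, gluconeogenesis and other glycogen genes had 0 calls among 14, 9, 4 and 16 tested genes. Their largest differences were -0.44 for the transporter Slc2a6 and -0.39 for Slc16a1, -0.27 for Pdha1 and -0.25 for Dlat, -0.36 for Fbp2 and -0.18 for Fbp1, and 0.34 for Phkg2 and 0.31 for Phka2. Of the 16 glycogen genes 14 were above 0, with a median of 0.17.

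The comparison of Ahrr-/- with WT asks which of the genes differ in samples labelled as lacking the AHR repressor. No difference passed the test: 0 of 33 tested genes were called, where 0.0779% of all 11546 tested genes were called (limma with sex as covariate). At an unadjusted p under 0.05 there were 2 genes, Pfkfb4 and Pgm2, where 7.39% of all tested genes were, and limma voom on the counts also called 0, with 2 at an unadjusted p under 0.05. Without the 4 Ahrr-/- libraries highest in gut epithelial markers, limma called 0 of 33, with 2 at an unadjusted p under 0.05. In that fit 2 of all 11355 tested genes were called higher and 0 lower. The median difference was 0.04 against 0.01 over all tested genes, and the median size was 0.09 against 0.15.

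Pfkfb4 differed by 0.48 from WT (SE 0.15, adjusted p = 0.502 from limma), with 5 of 6 Ahrr-/- samples above every WT sample. Pgm2 differed by -0.34 (SE 0.15, adjusted p = 0.658 from limma), with 4 of 6 Ahrr-/- samples below every WT sample. The other genes called in Ahr-/- against WT had differences of -0.31 for Hk2, 0.32 for Hk3, 0.05 for Ldha and -0.02 for G6pdx, with adjusted p of at least 0.671. By role, the median difference lay between -0.15 for the hexokinases and 0.15 for the payoff genes. The 7 tested payoff genes were all above 0, under the other 4 scalings too, and their range was 0.05 to 0.38.

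The 9 lists of neighbouring genes also had 0 calls in this comparison. Differences were, for example, 0.48 for Slc2a6 and 0.45 for Slc16a1 among transporters, 0.45 for Hkdc1 among isozymes, and 0.33 for Pdp1 and 0.29 for Pdk2 around pyruvate dehydrogenase. Gluconeogenesis had 0.52 for Fbp2 and 0.39 for Fbp1, the NADPH list 0.49 for Idh2 and 0.42 for Prps2, and the glycogen list -0.19 for Gsk3b. For sugar entry they were 0.55 for Khk and 0.36 for Galk1, for hypoxia 0.46 for Ndrg1 and 0.40 for Epas1, and for the regulators 0.44 for Mlxipl and 0.34 for Prkaa2. Adjusted p lay at 0.603 or above for each of these genes. Khk and Fbp1 are also enterocyte markers. No marker of enterocytes (0 of 13) or of goblet and Paneth cells (0 of 9) was called by limma in this comparison, although both sums were highest in Ahrr-/- samples, and the neutrophil markers S100a8 (difference 2.06) and S100a9 (2.10) were called higher.

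The direct comparison of Ahrr-/- with Ahr-/- asks how the samples labelled with each knockout differ. Tpi1, Pgam1, Ldha and Pdk1 were higher in Ahrr-/-, and Hk2, G6pdx and Pygl were lower. Of 33 tested genes 4 were called higher, where 8.04% of all 11474 tested genes were, and 3 lower, where 6.84% were (limma with sex as covariate). The median difference was 0.02 against -0.00 over all tested genes, the median size 0.29 against 0.21, and 15 of 33 had an unadjusted p under 0.05 against 32.8% of all. Of these calls, that of Hk2 alone was kept whichever single sample was left out, and none of the 7 was kept without the 4 Ahrr-/- libraries highest in gut epithelial markers. Without those libraries 172 of all 11276 tested genes were called higher and 118 lower. With no minimum mean 0 genes were called higher and 1 lower, where 661 and 595 of all 21734 tested genes were. With no sex covariate it was 1 and 1, where 445 and 549 of all 11474 tested genes were called.

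Hk2, whose values are given above, decreased by 0.77 in Ahrr-/- against Ahr-/- (SE 0.15, adjusted p = 0.00431 from limma), with 6 of 6 Ahrr-/- samples below every Ahr-/- sample. Leaving out each sample in turn gave adjusted p between 0.00142 and 0.0151. Hk3 differed by -0.44 (adjusted p = 0.0618 from limma) and Hk1 by -0.35 (adjusted p = 0.117). Among the preparatory genes other than Tpi1, Pfkp had the largest difference, 0.35 (adjusted p = 0.0622 from limma). The differences of the Pfkfb genes lay between 0.02 and 0.06, of which some turned below 0 under quantile normalization or median centring.

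The payoff genes, with Tpi1 and Ldha counted among them, held 3 of the 4 higher calls. Tpi1 (Entrez 21991, chromosome 6 from 124810586 to 124814158) lay between 8.58 and 9.50 in WT (median 8.78), between 8.52 and 9.04 in Ahr-/- (median 8.77) and between 8.75 and 9.66 in Ahrr-/- (median 9.38). F1 and M2 of Ahrr-/- fell within the range of Ahr-/-, and the other 4 were above it. Tpi1 was higher by 0.51 in Ahrr-/- than in Ahr-/- (SE 0.15, adjusted p = 0.0405 from limma). The call was kept in 3 of 12 fits that left out a sample; without any one of F1, F2, M1, M2 and M3 of Ahr-/- or F2, F3, M1 and M3 of Ahrr-/- the adjusted p lay between 0.0538 and 0.0926.

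Pgam1 (Entrez 18648, chromosome 19 from 41911871 to 41918665) lay between 10.58 and 11.01 in WT (median 10.72), between 10.21 and 10.77 in Ahr-/- (median 10.36) and between 10.58 and 11.03 in Ahrr-/- (median 10.87). The highest Ahr-/- sample, M3, overlapped with F1 and M3 of Ahrr-/-, and the other 5 were below all Ahrr-/- samples. The difference was 0.43 (SE 0.13, adjusted p = 0.0442 from limma). It was kept in 4 of 12 fits that left out a sample, and without any one of F1, F2, M1 and M2 of Ahr-/- or F2, F3, M1 and M2 of Ahrr-/- the adjusted p lay between 0.0578 and 0.106.

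Ldha was higher by 0.67 in Ahrr-/- than in Ahr-/- (SE 0.20, adjusted p = 0.0357 from limma), with 3 of 6 samples above every Ahr-/- sample and all 6 above every Ahr-/- sample other than F3. It was kept in 6 of 12 fits that left out a sample; without any one of F1, F2, M1, M2 and M3 of Ahr-/- or M3 of Ahrr-/- the adjusted p lay between 0.0521 and 0.0869. Gapdh (difference 0.51, adjusted p = 0.0581 from limma) passed without F3 of Ahr-/- (0.0354), F1 of Ahrr-/- (0.0427) or F3 of Ahrr-/- (0.0485). Eno1 differed by 0.41, Pkm and Pgk1 each by 0.32, and 7 of 7 tested payoff genes were above 0, under the other 4 scalings too, with a median of 0.43.

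Pdk1 (Entrez 228026, chromosome 2 from 71873215 to 71903858) lay between 7.19 and 7.82 in WT (median 7.38), between 6.72 and 7.45 in Ahr-/- (median 7.19) and between 7.33 and 8.18 in Ahrr-/- (median 7.60). Its highest values were those of M3 and F3 of Ahrr-/-, and F1 and F2 of Ahrr-/- overlapped with M1 of Ahr-/-. Pdk1 was higher by 0.53 in Ahrr-/- than in Ahr-/- (SE 0.16, adjusted p = 0.0353 from limma, 4 of 6 samples above every Ahr-/- sample). The call was kept in 5 of 12 fits that left out a sample; without any one of F1, F2, M1, M2 and M3 of Ahr-/- or F3 and M3 of Ahrr-/- the adjusted p lay between 0.0548 and 0.0861. Pdk3 differed by 0.07 (adjusted p = 0.77 from limma), a sign that turned under quantile normalization.

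G6pdx decreased by 0.45 in Ahrr-/- against Ahr-/- (SE 0.13, adjusted p = 0.034 from limma), with 4 of 6 Ahrr-/- samples below every Ahr-/- sample. The call was kept in 4 of 12 fits that left out a sample; without any one of the 6 Ahr-/- samples or F3 and M3 of Ahrr-/- the adjusted p lay between 0.0511 and 0.083. The other pentose phosphate genes lay between -0.29 for Taldo1 and 0.16 for Rpe, with 6 of 7 below 0, G6pdx included, under the other 4 scalings too.

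Pygl (Entrez 110095, chromosome 12 from 70190815 to 70227683), which releases glucose 1-phosphate from glycogen, lay between 12.20 and 12.64 in WT (median 12.44), between 12.62 and 12.98 in Ahr-/- (median 12.85) and between 11.37 and 12.77 in Ahrr-/- (median 12.29). The lowest values were those of M3 and F3 of Ahrr-/-, and F2 of Ahrr-/- was the one sample of its group inside the range of Ahr-/-. Pygl decreased by 0.63 in Ahrr-/- against Ahr-/- (SE 0.19, adjusted p = 0.0427 from limma, 5 of 6 samples below every Ahr-/- sample). The call was kept in 5 of 12 fits that left out a sample; without any one of F1, F2, M1, M2 and M3 of Ahr-/- or F3 and M3 of Ahrr-/- the adjusted p lay between 0.0782 and 0.1. Pgm1 differed by -0.30 (adjusted p = 0.128 from limma), Pgm2 by 0.26 (0.199), Gbe1 by -0.13 (0.591) and Gys1 by -0.02 (0.955).

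Markers of other cells moved with these results. For goblet and Paneth cells, 8 of 9 markers were called higher in Ahrr-/- than in Ahr-/-, with Lyz1 the most abundant and a sum of 1100 to 9710 CPM against 776 to 1350. For enterocytes it was 4 of 13, with Sis the most abundant and a sum of 415 to 3490 against 273 to 985. No marker of these lists was at 0 in all samples. Of 7 tested eosinophil markers, 4 were called lower in Ahrr-/-. Among 5 tested neutrophil markers S100a8 (difference 1.73) and S100a9 (1.69) were called higher and Retnlg (-1.29) lower. The part of these lists in the calls of the 7 genes was not tested, other than by leaving out the libraries with the most gut epithelial RNA.

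Without F3, M1, M2 and M3 of Ahrr-/-, which leaves 2 females against the 6 Ahr-/- samples, 0 of 32 genes were called by limma. Calls were fewer over all 11276 tested genes too, with 172 higher and 118 lower against 923 and 785 with all 12 samples. Of the 32 genes, 8 had an unadjusted p under 0.05. Hk2 then differed by -0.58 (adjusted p = 0.0747 from limma), Ldha by 0.55 (0.242), Pgam1 by 0.44 (0.367) and G6pdx by -0.41 (0.256). Pdk1 differed by 0.35 (0.468), Tpi1 by 0.28 (0.635) and Pygl by -0.26 (0.558).

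**Figure D4:**
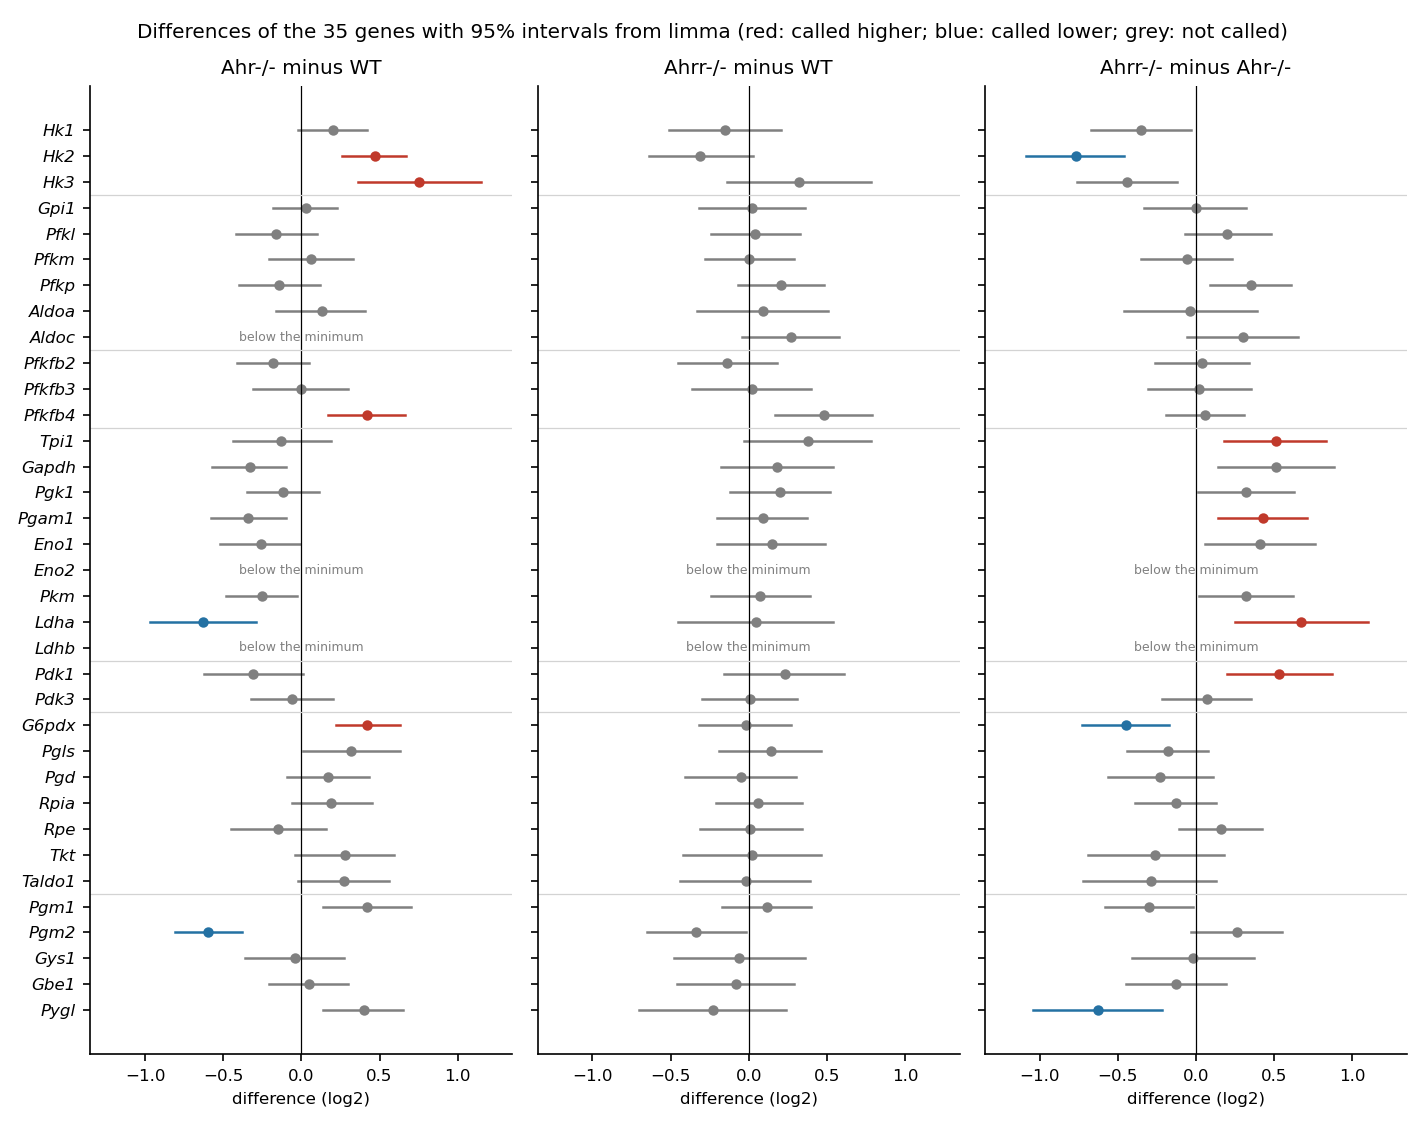
Differences (log2, horizontal axes) of the 35 genes (vertical axis, ordered by role) with 95% intervals from limma in 3 comparisons of genotypes, with red for genes called higher, blue for genes called lower and grey for the rest. Genes below the minimum mean have no point, and no gene is called in Ahrr-/- against WT. The tested payoff genes, Tpi1 and Ldha included, lie below 0 in Ahr-/- against WT and above 0 in Ahrr-/- against Ahr-/-.

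Some neighbouring genes were also called in this comparison, in which 14.9% of all tested genes were called either way. For transport, 3 of 14 rose in Ahrr-/- against Ahr-/-: Slc2a6 (difference 0.93, adjusted p = 0.00305 from limma), the lactate transporter Slc16a1 (0.84, 0.0268) and its chaperone Bsg (0.61, 0.0333). Among the isozymes Pklr rose by 0.75 (adjusted p = 0.0263 from limma), and Adpgk decreased by 0.95 without overlap (0.00201). Fbp2 (0.88, adjusted p = 0.0321 from limma) and Fbp1 (0.57, 0.0445) of gluconeogenesis, Me2 (0.69, 0.0152), and Galm (1.12, 0.000116) and Pmm2 (0.47, 0.0323) of sugar entry were also higher. Fbp1 is an enterocyte marker as well.

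In the glycogen list 2 of 16 tested genes were called lower, where 6.84% of all tested genes were. These included Phkb, a phosphorylase kinase subunit, which decreased by 0.34 (adjusted p = 0.0475 from limma). The hypoxia list had 4 of 18 higher, Epas1 (1.05, adjusted p = 0.0298 from limma), Hif1a (0.84, 0.0144), Ndrg1 (0.84, 0.0285) and Vhl (0.54, 0.034). Among the 15 regulators Myc decreased by 1.31 without overlap (adjusted p = 0.000232 from limma), while Prkag1 (0.68, 0.0017, without overlap) and Mlxipl (mean 9.09 against 8.09, 0.0259), which encodes the sugar-responsive factor ChREBP, were higher. Around pyruvate dehydrogenase 0 of 9 were called by limma, the largest differences being 0.43 for Pdha1 and 0.29 for Pdhb.

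Males and females were compared over all 18 samples with genotype as covariate. Pfkp, the platelet-type phosphofructokinase, was lower in males in every genotype and was the single call. It was 1 of 33 tested genes, where 2.46% of all 11468 tested genes were called lower in males. None was called higher by limma or by limma voom, where limma called 0.602% of all tested genes. In either direction 7 of 33 had an unadjusted p under 0.05 by each of these tests, and 18.7% of all tested genes did by limma.

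Pfkp (Entrez 56421, chromosome 13 from 6579874 to 6649060) lay between 9.58 and 10.41 in females (median 10.14) and between 9.26 and 9.87 in males (median 9.54). Of the 9 females 7 were above every male, and the exceptions were F3 of WT and F3 of Ahr-/-. Male minus female means were -0.53 in WT, -0.54 in Ahr-/- and -0.57 in Ahrr-/-. The difference was -0.55 (SE 0.10, adjusted p = 0.00644 from limma), and it was called in all 18 fits that left out a sample. Without F3 of WT and F3 of Ahr-/- it was -0.65 (adjusted p = 0.00224 from limma).

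Next came Pgm2 (difference -0.35, adjusted p = 0.0663 from limma), the inducible Pfkfb3 (-0.44, 0.0743), Pkm (-0.32, 0.1) and Rpe (0.33, 0.12). Without F1 of WT, Pfkfb3 (adjusted p = 0.0161 from limma) and Pgm2 (0.0276) passed. Pfkfb3 also passed without M1 of WT (0.0465) or F3 of Ahrr-/- (0.0425), and Pgm2 without F3 (0.0317) or M1 (0.042) of Ahrr-/-. The median of the 33 genes was -0.10 against 0.01 over all tested genes.

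Among the neighbouring genes, 3 of 14 transporters were lower in males, where 2.46% of all tested genes were: the sugar transporter Slc2a6 (difference -1.36, adjusted p = 0.00431 from limma), the lactate exporter Slc16a3 (-0.76, 0.0182) and the glucose transporter Slc2a1 (-0.58, 0.0229). In the hypoxia list Vegfa (-1.17, adjusted p = 0.00562 from limma) and Ddit4 (-0.75, 0.0451) were lower, 2 of 18. Idh1, a source of NADPH, was higher in males (0.55, adjusted p = 0.0364 from limma), 1 of 9, where 0.602% of all tested genes were. The other 6 lists had 0 calls by limma, and differences in them were, for example, 0.56 for Bpgm, 0.30 for Dlat and 0.26 for Pdk2, 0.39 for Fbp2 and 0.26 for Fbp1, -0.38 for Gaa and 0.36 for Pgm2l1, 0.32 for Gnpda2 and 0.29 for Galm, and 0.53 for Prkaa2 and 0.29 for Mlxipl.

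A genotype effect that depends on sex was tested with an interaction term, chosen after the data were seen. It was called for 0 of 32 genes in Ahr-/- against WT and 0 of 33 in Ahrr-/- against WT (limma). Over all tested genes it was likewise called for 0 of 11346 and 0 of 11546. At an unadjusted p under 0.05 there were 3 of the 32 and 0 of the 33, against 533 and 544 over all tested genes. The lowest adjusted p from limma was 0.954 among the 32 and 0.727 among the 33.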

How the data were processed

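The deposited values were log2 values made by the authors, whose methods name nf-core/rnaseq with GRCm38 and Ensembl genes, while the submitters' notes list STAR 2.5.2, RSEM 1.3.0, DESeq2 and R 4.0.3 with GRCm38/mm10. They fitted the variance-stabilizing transformation of DESeq2, applied by the authors, and this unit, assumed in the plan before the files were opened, was kept. Once the transformation was undone, 100% of the values were whole numbers within a tolerance of 0.0001. These counts were used for depth, levels per kb, marker sums and limma voom.

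Groups were compared with limma (empirical Bayes with an intensity trend) on the deposited values. Genes with a mean at least 1 above the lowest value, 5.02, were tested, Benjamini-Hochberg adjustment was over all tested genes, and genes with an adjusted p under 0.05 were called. Each genotype comparison used its 12 samples with sex as covariate, and the comparison of sexes used 18 samples with genotype as covariate. Versions were R 4.3.3, limma 3.58.1, Python 3.11.15, numpy 2.4.6, pandas 2.3.3 and matplotlib 3.10.9. The scripts were first run on simulated data.

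The 35 genes were found by symbol, and 22685 of 22708 identifiers of the table matched RefSeq. Lengths per kb were those of the longest APPRIS principal transcript in GENCODE M21. Samples were called without overlap where all values of one group lay beyond those of the other. The 35 genes, the 12 marker lists and the 9 lists of neighbouring pathways were chosen with earlier results of these data known. Of the marker lists not described in the report, 0 genes were called in any genotype comparison for T cells and innate lymphocytes, mast cells and red cells. In Ahrr-/- against Ahr-/-, 2 of 4 genes of B and plasma cells, 1 of 5 of fibroblasts and 1 of 4 of endothelial cells were higher, and of 11 genes of macrophages and dendritic cells 2 were higher and 1 lower. The 1 endothelial gene tested in Ahr-/- against WT, Pecam1, was lower (difference -0.63). Of the macrophage and dendritic cell list 2 of 10 genes were higher and 1 lower in Ahr-/- than in WT, and of the acinar list 3 of 7 were lower.

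Alternatives were no minimum mean, a minimum of 3, quantile normalization, median centring, log2 of normalized counts, limma voom, no trend, no sex or genotype covariate, a replicate block, a single fit of the 18 samples, and the omission of each sample in turn.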

Additional observations from a re-analysis of the deposited data

Results flagged for a closer look

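A value far from the other 5 of its group was found in 5 of the 105 combinations of gene and group. The criterion was a gap to the nearest sample, as a share of the range of the group, above Dixon's 95% value for 6 samples, and chance alone would give about 1 in 20. Ldha was 12.23 in F3 of Ahr-/- (group median 11.67, gap 0.687 of the range). G6pdx was 10.13 in F3 of WT (median 9.79, gap 0.659). Pgls, the lactonase gene, was 7.57 in F3 of Ahr-/- (median 7.21, gap 0.656). Pgm1 was 6.61 in F3 of WT (median 7.10, gap 0.717). Gbe1, the branching enzyme gene, was 7.24 in M3 of Ahrr-/- (median 7.95, gap 0.670). These came from 3 libraries, of which F3 of WT and F3 of Ahr-/- had the most genes detected and M3 of Ahrr-/- the most gut epithelial RNA.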

How the results depend on the processing

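The number of genes called changed with the settings, and no difference of a called gene changed its sign. Of the counts of called genes, 154 stayed within a factor of 1.5 under an alternative, which lets 4 become 3 or 5, and 40 moved further. Of the other results, 406 stayed within their tolerance, 85 moved beyond it and 37 lost their call with the sign kept. The tolerance was a factor of 1.5 for counts, the SD between samples for median differences, and the call itself for single genes. Settings that left out libraries for their number of detected genes or their gut epithelial markers, and the test of a genotype effect that depends on sex, were chosen after the data were seen.

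In Ahr-/- against WT, the 4 genes called higher became 2 with all 18 samples in the fit, where Hk2 and Pfkfb4 were lost, and 2 without F1 and M3 of WT, and between 2 and 5 with single samples left out. The 2 genes called lower became 1 with no minimum mean, 1 with all 18 samples in the fit and 1 without F1 and M3 of WT, each time by the loss of Ldha, and between 1 and 3 with single samples left out.

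In Ahrr-/- against Ahr-/-, the 4 genes called higher became 0 with no minimum mean, 7 with quantile normalization, 2 with median centring, 1 with no sex covariate and 0 without the 4 Ahrr-/- libraries highest in gut epithelial markers. They were between 0 and 5 with single samples left out. The 3 genes called lower became 1 with no minimum mean, 5 with quantile normalization, 1 with no sex covariate and 0 without these 4 libraries, and between 1 and 4 with single samples left out. Calls over all tested genes changed too. With no minimum mean 661 were higher and 595 lower, with no sex covariate 445 and 549, and without these 4 libraries 172 and 118. In the main fit 923 of all tested genes were called higher and 785 lower, 54.0% higher, while quantile normalization gave 811 higher and 1043 lower, 43.7% higher. More genes were called lower than higher also with a minimum of 3 (39.6% higher), no sex covariate (44.8%) and median centring (45.7%). The cause was not tested.

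In males against females, the 1 gene called lower became 2 with a minimum of 3, and between 1 and 3 with single samples left out.

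The labels give the groups the same sample numbers. With the number and sex as replicate block, 4 genes were called higher and 3 lower in Ahr-/- than in WT, 0 and 0 in Ahrr-/- against WT, and 3 and 4 in Ahrr-/- against Ahr-/-. The genes were not all the same: with the block, Pfkfb4 was lost (adjusted p = 0.0598 from limma) and Pgm1 (0.0442) and Pgam1 (0.0396) were gained in Ahr-/- against WT, and Pgam1 was lost (0.0682) and Hk3 gained (0.0432) in Ahrr-/- against Ahr-/-. Correlations between samples of the same number lay between -0.265 and 0.473, between -0.592 and 0.335, and between -0.336 and 0.325 in these comparisons, which gives no sign that equal numbers form pairs.

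Depth was lowest in WT, from 3842977 counts, which limits genes such as Pfkm, Hk3 and Pfkfb4, and 3 females and 3 males per group leave little power for small differences. A p above the threshold does not show that values were equal.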
